A study of Danio rerio with 6 samples.

Results

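The genes described here build, load, drive or feed the DNA replication fork. They were chosen by name as 48 gene symbols, looked up without regard to case among the Ensembl identifiers of the count tables. The symbols matched 50 of 26375 identifiers, because the table of gene names lists mcm6 and rrm2 at 2 identifiers each and does not tell the copies apart. Of the 50 identifiers, 49 passed the filter on low counts and were tested together with the rest of 18487 genes, and the remaining one, a second mcm6 copy (ENSDARG00000033231), had 0, 6 and 2 counts in the mettl16-/- libraries and 4, 2 and 8 in the sibling libraries. RNA was sequenced from the trunk and tail of zebrafish embryos at 3 days post fertilization, a piece that includes the caudal hematopoietic tissue (CHT), where blood stem and progenitor cells expand at this age. The mettl16-/- libraries (n = 3, labelled as a gene knockout) came from a stable CRISPR/Cas9 line mutant for mettl16, which encodes an m6A RNA methyltransferase, and the sibling libraries (n = 3, untreated) are labelled mettl16+/+. Both groups are of the AB strain, each library pooled the tails of many embryos, and the heads had been removed for genotyping. The study asked how loss of mettl16 bears on the cell cycle of blood stem and progenitor cells, and the question addressed here is whether the transcripts of the replication machinery differed with genotype in the whole tail, by step of replication and by replicate number.

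DNA replication starts from origins that are licensed in G1. The origin recognition complex (ORC), with CDC6 and CDT1, loads the MCM2 to MCM7 ring onto DNA, and geminin, the product of gmnn, binds CDT1 and keeps origins from being licensed again in S phase. In S phase CDC45 and the GINS complex join the ring to form the CMG helicase, primase and DNA polymerase alpha lay primers, and polymerases delta and epsilon extend the strands on the PCNA clamp, which replication factor C (RFC) loads. RPA covers single-stranded DNA, FEN1 and LIG1 finish the lagging strand, ribonucleotide reductase and thymidylate synthase supply the deoxynucleotides, and UHRF1 and DNMT1 copy DNA methylation behind the fork. Transcription of many of these genes is turned on at the G1/S boundary, and their messages are abundant in dividing cells.

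The libraries held between 16239791 and 18541402 counts, and the members tested had mean counts from 36 to 3498. The targeted gene mettl16 had 4.004, 3.28 and 5.15 CPM (counts scaled to a common library size with edgeR's TMM factors) in the mettl16-/- libraries and 6.13, 6.17 and 7.01 CPM in the sibling libraries. Each mettl16-/- value was below each sibling value, with a log2 fold change of -0.63 (SE 0.211) that was not called (edgeR adjusted p = 0.9999, and 0.068 with the replicate block). The labels do not say what sets replicates apart, so p-values measure the spread between these libraries only. Across genes, libraries of the same replicate number differed less between genotypes (chi-square per degree of freedom 4.04 to 7.55) than libraries of 1 genotype differed among themselves (10.1 to 18.4), and the number is therefore followed through the results below. Some libraries held more RNA of the head, which the dissection should leave out, than the others. The 51 identifiers named as lens crystallins, a list chosen after their values were seen, summed to 754 CPM in mettl16-/- replicate 1, against 1.84 and 4.97 CPM in the other mettl16-/- libraries and 4.18, 3.08 and 20.2 CPM in the sibling libraries. The 8 cone opsin identifiers, chosen in the same way, summed to 36.9 CPM in mettl16-/- replicate 3, 10.5 CPM in sibling replicate 3 and at most 3.18 CPM in any other library. The list of head markers (cryaa, rho, crybb1 and atoh7, all matched) summed to 1.39 to 52.1 CPM in the mettl16-/- libraries and 0.617 to 4.97 CPM in the sibling libraries. Among markers of tissues of the trunk and tail, summed CPM overlapped between genotypes for the erythroid, myeloid, endothelial, skeletal muscle, epidermal, neural, liver and intestinal lists. Set against the sibling of the same number, however, the mettl16-/- sum was lower in every number for the liver and myeloid lists. The sum of the blood stem and progenitor list was also lower in every number. For the muscle and epidermal lists the sum was higher in every number. Outside the liver list, the genes of a list did not all follow its sum. In numbers 1, 2 and 3 the mettl16-/- library was higher for 1, 1 and 2 of 3 myeloid genes. Among blood stem and progenitor genes it was higher for 2, 1 and 1 of the 4 tested. For muscle it was higher for 1, 2 and 2 of 2 genes, and for epidermis for 2, 2 and 3 of 3. With the replicate block, the liver genes tfa (adjusted p = 0.022) and fabp10a (0.034) were called lower, and the erythroid gene alas2 (0.018) and the muscle gene actc1b (0.042) higher, in mettl16-/- libraries. Their part in the results below was not tested. Pancreas markers (2 of 3 matched) did not overlap, at 10.8 to 17.9 CPM in the mettl16-/- libraries and 23.1 to 71.8 CPM in the sibling libraries. Of these, cela1.4 was called lower without the block too (log2 fold change -3.64, edgeR adjusted p = 0.035, and 1.0e-05 with the block). It had 3, 3 and 4 counts in the mettl16-/- libraries and 28, 38 and 68 in the sibling libraries. The other, prss1, was not called in either fit. The part of the pancreas genes in the results below was not tested.

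No replication gene was called between mettl16-/- and sibling libraries. Of the 49 identifiers tested, 0 had an adjusted p under 0.05 by edgeR's quasi-likelihood test, where 0.124% of all genes did, and 0 had an unadjusted p under 0.05, where 2.17% of all genes did. The adjusted p of every member was 0.9999 or more in this fit and is not repeated below. DESeq2 also called 0 members, where it called 60 of the 18487 genes. It gave 0 members an unadjusted p under 0.05, where 297 of all genes had one. The log2 fold changes ran from -0.57 to 0.37 with a median of -0.03, beside a median of -0.00 over all genes tested, and 21 members had positive and 28 negative values. The median standard error of a member was 0.141 on the log2 scale. The 95% interval lay wholly within a 1.5-fold change in either direction for 36 of the 49 members, as it did for 10078 of the 18487 genes. For the other 13 members the interval reached beyond 1.5-fold. The 3 mettl16-/- values were each higher than every sibling value for 2 members, fen1 and rpa1, and each lower for 0, where 3.46% and 3.43% of all genes did so. These are trunk and tail libraries, in which fewer cells of a type and less RNA per cell cannot be told apart. The study reported G0/G1 arrest in sorted blood stem and progenitor cells, whose share of these libraries was not measured. The values above count the RNA of all cells of the tail together. They do not tell how the replication genes stood in those sorted cells. Blood stem and progenitor markers (5 of 6 matched, 4 tested) summed to 36.5 to 38.9 CPM in the mettl16-/- libraries and 38.3 to 43.4 CPM in the sibling libraries.

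**Figure D1:**
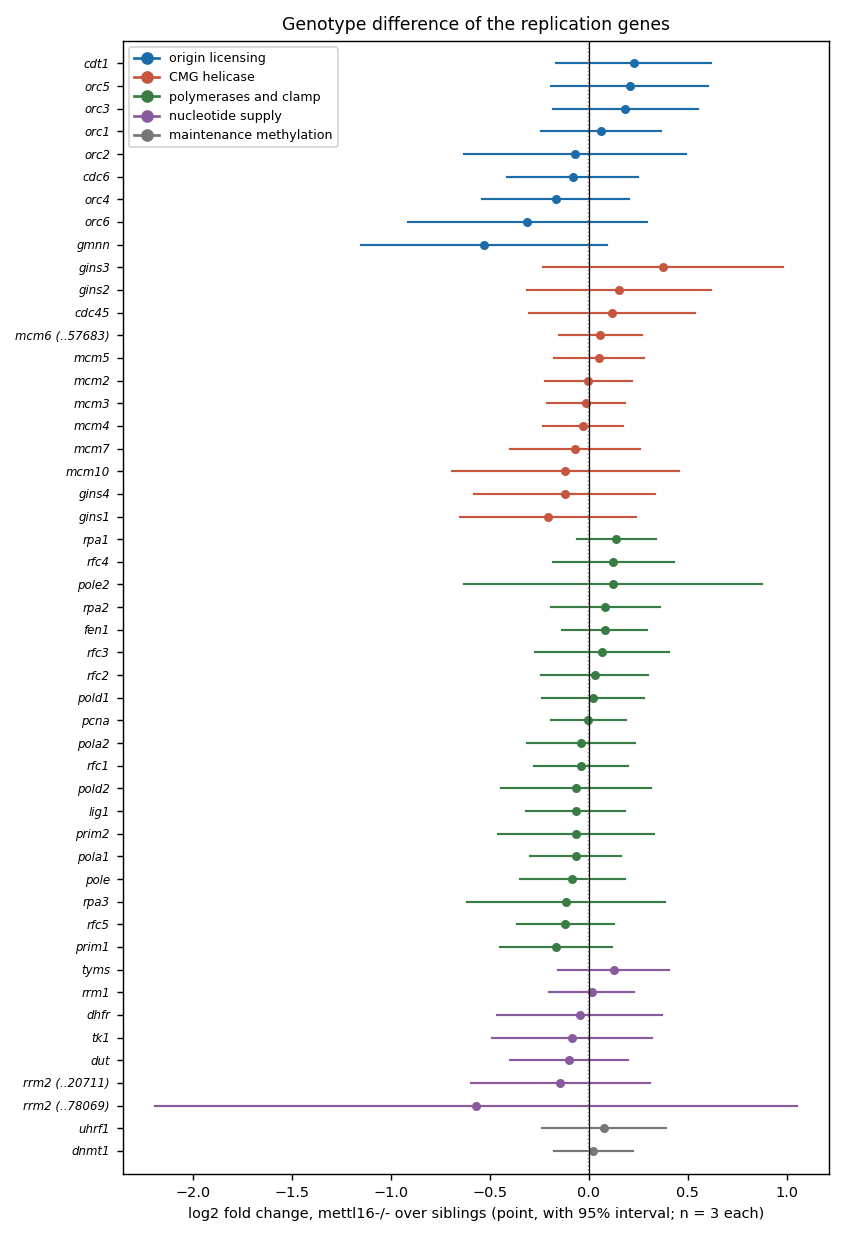
Log2 fold change of each of the 49 replication identifiers tested, mettl16-/- over siblings (point, with its 95% interval from edgeR, 3 libraries per genotype), grouped by step of replication; the dotted line is the median of all genes tested, and names in brackets give the last digits of the Ensembl identifier. Every interval includes 0, and the widest belong to the members with few counts or a large spread, such as rrm2 (ENSDARG00000078069) and pole2.

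With the replicate number as a block in the fit, 0 members were called, where 1.04% of all genes were. At an unadjusted p under 0.05 there were 3 of 49 members, where 9.20% of all genes passed. The 3 were gmnn and rrm2 (ENSDARG00000020711), both with negative log2 fold changes, and rpa1, with a positive one, and the smallest adjusted p among them was 0.37. The block narrowed the intervals, and 44 of 49 members then had an interval within a 1.5-fold change, as did 12586 of the 18487 genes.

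Origin licensing was described by 9 genes, of which 4 had positive and 5 negative log2 fold changes (median -0.07). The gene with the smallest p of all members was gmnn, which encodes the licensing inhibitor geminin. It had 2.88, 3.73 and 3.41 CPM in the mettl16-/- libraries and 3.01, 6.02 and 5.45 CPM in the sibling libraries. All mettl16-/- libraries were low, and so was sibling replicate 1, which lay below 2 of the mettl16-/- libraries, so the groups overlapped. The log2 fold change was -0.53 (SE 0.279, 95% interval -1.15 to 0.09, unadjusted p = 0.086), and it was -0.51 with an adjusted p of 0.37 with the replicate block. It rested on 46, 67 and 57 counts in the mettl16-/- libraries and 51, 117 and 91 in the sibling libraries, and moved between -0.78 without sibling replicate 1 and -0.33 without sibling replicate 2.

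The licensing factor cdt1, the target of geminin, had 8.20, 10.5 and 8.56 CPM in the mettl16-/- libraries and 6.90, 7.35 and 9.10 CPM in the sibling libraries. Its values overlapped through sibling replicate 3 (log2 fold change 0.23, SE 0.177). The ATPase cdc6, which helps ORC to load the helicase ring, had 14.5, 11.5 and 10.96 CPM in the mettl16-/- libraries and 13.1, 12.3 and 13.8 CPM in the sibling libraries. The highest of these was a mettl16-/- library and so was the lowest, and the log2 fold change was -0.08 (SE 0.149). For orc6, an ORC subunit, the values were 2.94, 5.07 and 3.71 CPM in the mettl16-/- libraries and 3.48, 5.81 and 5.27 CPM in the sibling libraries. Each mettl16-/- library was below the sibling of its own number, but replicate 1 was low in both genotypes, and the groups overlapped (log2 fold change -0.31, SE 0.272). That value moved between -0.54 without mettl16-/- replicate 2 and -0.14 without mettl16-/- replicate 1. The remaining ORC subunits, orc1 to orc5, had log2 fold changes between -0.17 (orc4) and 0.21 (orc5).

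The CMG helicase was covered by 12 identifiers, 5 with positive and 7 with negative log2 fold changes (median -0.01). Apart from mcm7, the ring itself was measured with small errors. Its 6 genes, mcm2 to mcm7, had log2 fold changes between -0.07 and 0.06 with standard errors of 0.0884 to 0.147, and the bounds of their 95% intervals reached from -0.40 to 0.28. Counts for mcm2 gave 125, 127 and 126 CPM in the mettl16-/- libraries and 119, 118 and 142 CPM in the sibling libraries. The mettl16-/- libraries were close together and lay inside the range of the siblings, of which replicate 3 was high (log2 fold change -0.00, SE 0.0992, 95% interval -0.22 to 0.22). For mcm5 the values were 81.5, 75.8 and 86.9 CPM in the mettl16-/- libraries and 76.1, 72.9 and 86.8 CPM in the sibling libraries, high in replicate 3 of both genotypes (log2 fold change 0.05, SE 0.103). The same held more widely for mcm7, with 64.4, 72.9 and 92.2 CPM in the mettl16-/- libraries and 70.7, 77.9 and 92.4 CPM in the sibling libraries (log2 fold change -0.07, SE 0.147).

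The factors that turn the ring into an active helicase were counted less deeply and spread more widely. GINS subunit gins3 had the highest log2 fold change of all members, 0.37 (SE 0.273, 95% interval -0.23 to 0.98), which moved between 0.18 without sibling replicate 1 and 0.56 without sibling replicate 3. Its values were 3.44, 5.07 and 3.77 CPM in the mettl16-/- libraries and 2.24, 3.29 and 3.95 CPM in the sibling libraries, overlapping through sibling replicate 3. Its partner gins1 had 5.19, 4.62 and 4.31 CPM in the mettl16-/- libraries and 4.60, 5.35 and 6.35 CPM in the sibling libraries, and there the log2 fold change was -0.21 (SE 0.200). The 4 GINS genes thus had 2 positive and 2 negative values, with gins2 at 0.15 and gins4 at -0.12. The helicase subunit cdc45 had a log2 fold change of 0.12 and mcm10, which helps the helicase to start, one of -0.12.

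The polymerases, the clamp and the proteins of the lagging strand made the largest group, with 19 genes, of which 8 had positive and 11 negative log2 fold changes (median -0.04, range -0.17 to 0.14). The sliding clamp pcna, the member with the most counts, had 212, 195 and 199.8 CPM in the mettl16-/- libraries and 204, 198 and 206 CPM in the sibling libraries. The mettl16-/- libraries held both the highest and the lowest value, and the log2 fold change was -0.00 (SE 0.0847, 95% interval -0.19 to 0.19). The largest subunit of the single-strand binding protein, rpa1, had 74.0, 81.7 and 80.0 CPM in the mettl16-/- libraries and 69.4, 72.0 and 72.5 CPM in the sibling libraries. The groups did not overlap, but the gap between them was smaller than the spread within the mettl16-/- libraries. Its log2 fold change was 0.14 (SE 0.0888, 95% interval -0.06 to 0.34, unadjusted p = 0.15), and with the replicate block the interval was 0.02 to 0.26 at an adjusted p of 0.44. The flap endonuclease fen1, named because it was the other member whose groups did not overlap, had 29.6, 28.9 and 28.4 CPM in the mettl16-/- libraries and 27.2, 28.0 and 26.95 CPM in the sibling libraries. Those values differed little, with a log2 fold change of 0.08 (SE 0.0965).

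The catalytic primase subunit prim1 had 14.1, 13.7 and 14.9 CPM in the mettl16-/- libraries and 14.3, 17.2 and 16.4 CPM in the sibling libraries. Siblings 2 and 3 were high and sibling 1 fell among the mettl16-/- values, and the log2 fold change of -0.17 (SE 0.128) was the lowest of this group. The polymerase delta subunit pold2 had 9.64, 10.3 and 9.70 CPM in the mettl16-/- libraries and 8.07, 11.8 and 11.1 CPM in the sibling libraries. Sibling replicate 1 was again the low one, and the log2 fold change was -0.07 (SE 0.171). The catalytic subunits of the replicative polymerases were at -0.07 (pola1, polymerase alpha), 0.02 (pold1, polymerase delta) and -0.08 (pole, polymerase epsilon). The 5 RFC genes, which encode the clamp loader, ran from -0.12 (rfc5) to 0.12 (rfc4), and DNA ligase lig1 was at -0.07.

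Nucleotide supply had 7 identifiers, 2 with positive and 5 with negative log2 fold changes (median -0.09). The small subunit of ribonucleotide reductase was listed at both rrm2 identifiers, and these behaved differently. One, rrm2 (ENSDARG00000020711), had 65.6, 69.7 and 43.5 CPM in the mettl16-/- libraries and 70.1, 75.6 and 51.8 CPM in the sibling libraries. Replicate 3 was low in both genotypes and each mettl16-/- library was below its own sibling, while the groups overlapped (log2 fold change -0.14, SE 0.198, and -0.15 with an adjusted p of 0.41 with the replicate block). The other, rrm2 (ENSDARG00000078069), had 13.1, 22.7 and 24.3 CPM in the mettl16-/- libraries and 8.49, 46.6 and 34.2 CPM in the sibling libraries. Sibling replicate 2 was the highest of these libraries and sibling replicate 1 the lowest, which gave the largest standard error of the members with a log2 fold change of -0.57 (SE 0.639, 95% interval -2.20 to 1.05). That value moved to -1.01 without sibling replicate 1 and to -0.08 without sibling replicate 2. Whether reads were shared between the rrm2 copies depends on counting settings that are not given in the sources used here, so their separate values are uncertain. The large subunit, rrm1, showed none of this spread, with a log2 fold change of 0.01 (SE 0.0970).

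Thymidylate synthase, tyms, had 16.1, 15.4 and 16.2 CPM in the mettl16-/- libraries and 13.3, 16.04 and 14.4 CPM in the sibling libraries, with a log2 fold change of 0.12 (SE 0.126). Siblings 1 and 3 were low and sibling 2 lay among the mettl16-/- values. The other enzymes of thymidine nucleotide supply were at -0.10 (dut), -0.09 (tk1) and -0.05 (dhfr). Behind the fork, uhrf1 had 46.0, 44.9 and 32.4 CPM in the mettl16-/- libraries and 42.1, 39.6 and 35.4 CPM in the sibling libraries. Replicate 3 was low in both genotypes, and the log2 fold change was 0.08 (SE 0.141). Its partner dnmt1, the maintenance methyltransferase, had 69.3, 76.0 and 69.1 CPM in the mettl16-/- libraries and 69.8, 73.2 and 68.1 CPM in the sibling libraries, with a log2 fold change of 0.02 (SE 0.0906). Replicate 2 was high in both genotypes, and the groups overlapped.

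**Figure D2:**
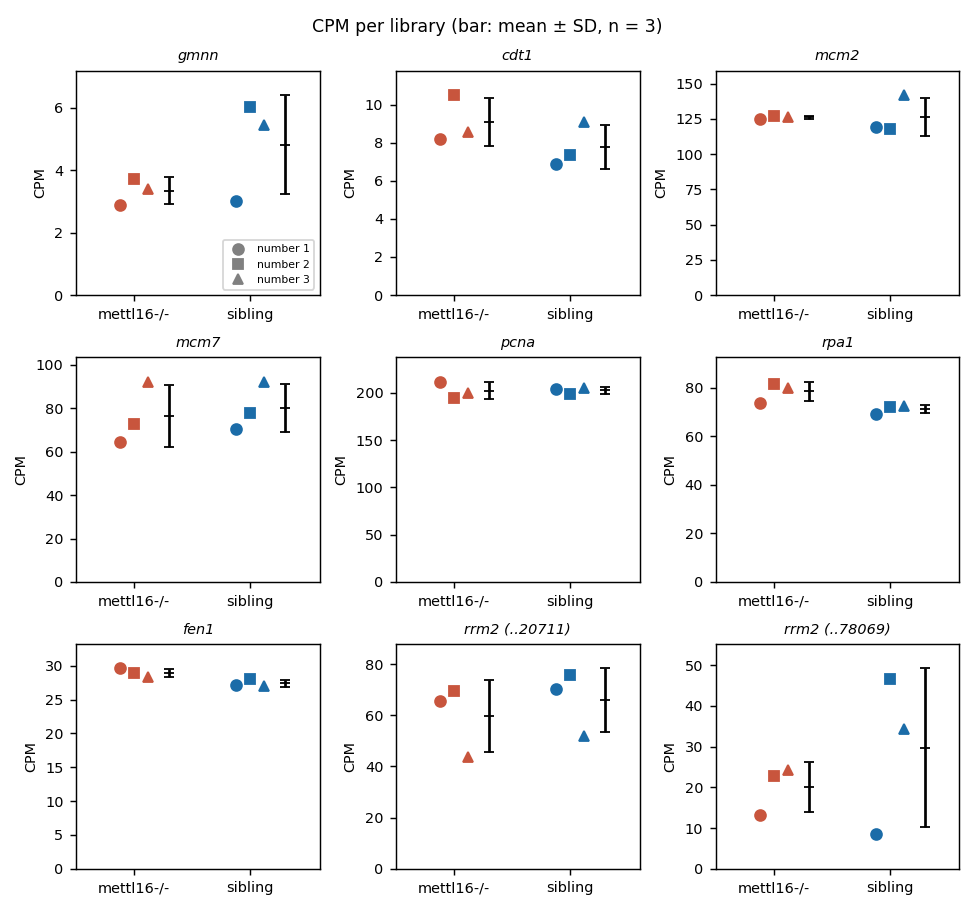
CPM of 9 replication identifiers in each library (circles, squares and triangles for replicate numbers 1, 2 and 3; bars give the mean and SD of 3 libraries), mettl16-/- libraries on the left and sibling libraries on the right of each panel. The groups overlap in each panel except those of rpa1 and fen1, and mcm7 and rrm2 (ENSDARG00000020711) follow the replicate number in both genotypes.

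Within replicate numbers, the direction of the difference turned. Set against the sibling library of the same number, the mettl16-/- library was higher for 36 of 49 members in number 1, for 23 in number 2 and for 11 in number 3, which is 73.5%, 46.9% and 22.4% of the members beside 50.3%, 49.99% and 48.7% of all genes tested. The median log2 differences of the members were 0.10, -0.02 and -0.11 in numbers 1, 2 and 3, where those of all genes rounded to 0.00 in each number. Summed over the 49 identifiers, the levels were 1625, 1663 and 1596 CPM in the mettl16-/- libraries and 1546, 1673 and 1695 CPM in the sibling libraries. The mettl16-/- sums all lay inside the range of the siblings, whose replicate 1 was the lowest and replicate 3 the highest of the 6 libraries. Each number holds 1 library of each genotype, so these are values without a test. The members of a number come from the same libraries and are no separate observations. The scaling holds the share of all genes near 50%. By total count that share was 46.2%, 38% and 37.6% in numbers 1, 2 and 3. Over the members alone, the departures of the mettl16-/- and the sibling library from their genotype means correlated in numbers 1 and 3 (r = 0.59 and 0.46) and not in number 2 (r = 0.023), where mettl16-/- replicate 2 followed sibling replicate 3 more closely (r = 0.32).

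The turn from number 1 to number 3 was found in 4 of the 5 steps by count of genes. In origin licensing the mettl16-/- library was higher for 6, 5 and 0 of 9 genes in numbers 1, 2 and 3 (medians 0.13, 0.14 and -0.23). In the CMG helicase it was higher for 10, 7 and 4 of 12 (medians 0.09, 0.03 and -0.08), and among polymerases and clamp for 13, 9 and 4 of 19 (medians 0.09, -0.02 and -0.11). In nucleotide supply it was higher for 6, 0 and 2 of 7 (medians 0.17, -0.12 and -0.22). Of the 2 maintenance methylation genes it was higher for 1, 2 and 1, where uhrf1 turned (0.13, 0.18 and -0.12) and dnmt1 did not (-0.01, 0.05 and 0.02). The helicase ring followed its step, with 5, 5 and 1 of 6 genes higher in the mettl16-/- library of numbers 1, 2 and 3.

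Single genes showed the same change of sign, though for cdt1 and gins3 the values in number 3 were near 0. The licensing gene cdt1 differed by 0.25, 0.51 and -0.09 in numbers 1, 2 and 3 on the log2 scale, gins3 by 0.59, 0.61 and -0.07, and rrm2 (ENSDARG00000078069) by 0.62, -1.03 and -0.49. A positive difference in number 1 and a negative one in number 3 was found for 26 of 49 members (53.1%), where 24.1% of all genes had it, and the opposite for 1 member (2.04%), dnmt1, where 22.5% of all genes had it. The sign was the same in all 3 numbers for 10 members, as it was for 5538 of all genes. Of these, mcm5, rfc4, fen1 and rpa1 were positive and orc6, gmnn, mcm7, pola1, prim1 and rrm2 (ENSDARG00000020711) negative. In number 3 of mcm5 and of mcm7 the difference was 0.00 and -0.00. For cdt1 and gins3 in number 3, counts were 143 and 63 in the mettl16-/- library and 152 and 66 in the sibling library.

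The counts of 36, 23 and 11 members were the same with DESeq2's size factors, and became 34, 15 and 8 with CPM by total count, where the medians of all genes were themselves -0.02, -0.07 and -0.06. Measured from those medians, the counts by total count were 36, 23 and 11 again. A scaling shifts all genes of a library almost alike, so this return was fixed in advance and is no further check. Lens RNA stood high in the mettl16-/- library of number 1 alone (754 CPM of crystallins), and its part in the differences of that number was not tested. Cone opsin RNA was highest in number 3, at 36.9 CPM in the mettl16-/- library and 10.5 CPM in the sibling library. Its part in the differences of number 3 was not tested either. The comparisons of numbers 2 and 3 (23 and 11 of 49 members) do not use mettl16-/- replicate 1 and cannot show the part of its lens RNA. With that library left out, 0 members were called for genotype, where 21 of all genes tested were. Blood stem and progenitor markers summed to 38.9, 36.5 and 36.8 CPM in the mettl16-/- libraries and 41.1, 38.3 and 43.4 CPM in the sibling libraries of numbers 1, 2 and 3. By gene, 2, 1 and 1 of the 4 markers tested were higher in the mettl16-/- library of numbers 1, 2 and 3. The marker lower in each number was myb, at 14.9, 13.5 and 13.1 CPM in the mettl16-/- libraries and 16.7, 15.5 and 18.6 CPM in the sibling libraries. Its groups did not overlap, as for the 3.43% of all genes with every mettl16-/- value below every sibling value. Those of gata2b, lmo2 and tal1, the other markers tested, overlapped. The log2 fold change of myb was -0.29 and was not called (SE 0.130, edgeR unadjusted p = 0.048, and 0.012 with the replicate block at an adjusted p of 0.32).

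**Figure D3:**
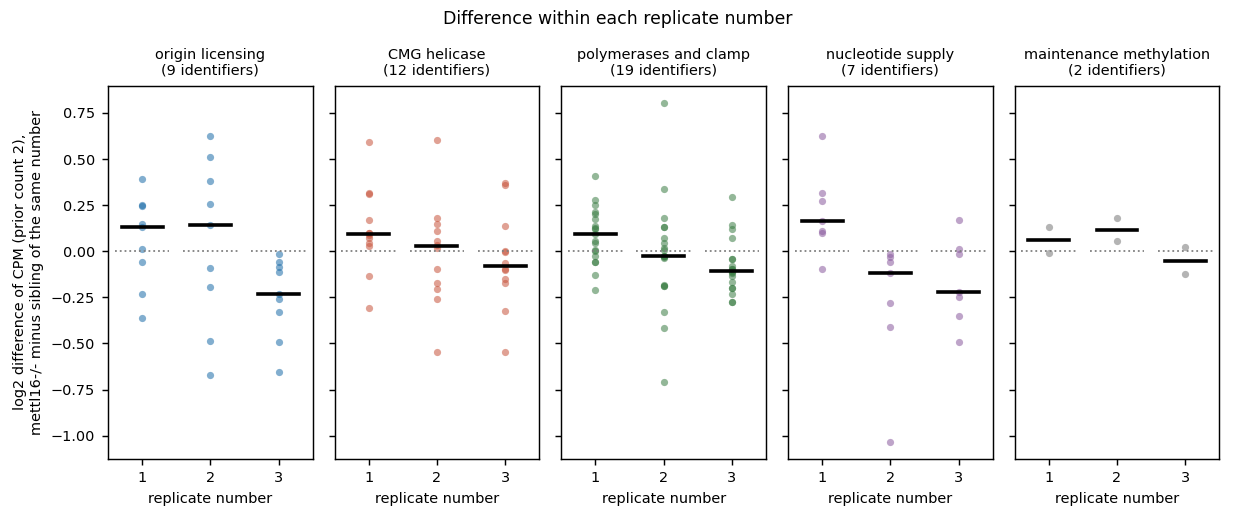
Log2 difference of CPM (prior count 2) between the mettl16-/- library and the sibling library of the same replicate number, 1 point per replication identifier, by step; black bars are medians of the step and dotted lines medians of all genes tested. The median is above the line in number 1 and below it in number 3 in each step, which in maintenance methylation is uhrf1 alone, and number 2 lies below in nucleotide supply and above in origin licensing.

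Differences between replicate numbers, with genotype kept in the fit, were called for 5 of 49 members (10.2%), where 24.7% of all genes tested were called. No test of the difference between these shares was made. The clearest was rrm2 (ENSDARG00000020711), with adjusted p = 3.1e-06 and log2 differences of -0.51 for number 3 minus number 1 and -0.61 for number 3 minus number 2. The helicase subunit mcm7 went the other way, at 0.45 and 0.29 (adjusted p = 1.2e-04). The methylation factor uhrf1 was at -0.37 and -0.31 (adjusted p = 0.0064).

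Smaller in evidence were orc6, at 0.76 for number 2 minus number 1 and 0.48 for number 3 minus number 1 (adjusted p = 0.042), and mcm5, at 0.14 for number 3 minus number 1 and 0.23 for number 3 minus number 2 (adjusted p = 0.048 for both terms together). The adjusted p of 0.042 for orc6 is for both terms together as well. Of the single contrasts of orc6, number 2 minus number 1 passed (adjusted p = 0.025) and number 3 minus number 1 did not (0.16). Of the single contrasts of mcm5, number 3 minus number 2 passed (adjusted p = 0.045) and number 3 minus number 1 did not (0.16). The calls of orc6 and mcm5 were lost when any of the 6 libraries was left out, with adjusted p between 0.070 and 0.28 for orc6 and between 0.073 and 0.35 for mcm5. That of uhrf1 was lost without mettl16-/- replicate 3 (adjusted p = 0.35). DESeq2's likelihood ratio test called 2 of the 49 members, where it called 1753 of the 18487 genes. No gene of polymerases and clamp was called, and the one of them with the smallest p for replicate number, pold2, differed by 0.24 between numbers 3 and 1 and by 0.33 between numbers 2 and 1. The first of these ran from 0.012 without sibling replicate 1 to 0.46 without mettl16-/- replicate 1. The second rrm2 identifier had the largest differences of the members, 1.63 for number 2 minus number 1 and 1.41 for number 3 minus number 1, but its adjusted p was 0.29. Some tissue markers differed with the number too, where 24.7% of all genes tested were called for it. Of the markers tested, 2 of 2 muscle, 2 of 3 epidermal and 2 of 2 neural genes were called. So were 2 of 2 liver, 1 of 1 intestinal and 1 of 2 endothelial genes. No blood stem and progenitor, myeloid or pancreas gene was called for replicate number. The neuronal gene elavl3 had 91.3, 64.9 and 46.6 CPM in mettl16-/- replicates 1, 2 and 3 and 80.2, 63.1 and 48.0 CPM in sibling replicates 1, 2 and 3, while the neural progenitor gene sox2 went the other way (log2 difference -0.85 for elavl3 and 0.35 for sox2, number 3 minus number 1). Of the 4 erythroid markers matched, hbae3 and alas2 were called for replicate number and lower in number 3 than in number 1 (log2 differences -0.51 and -0.37), and hbae1.1 and gata1a were not called. The part of the tissue markers in the differences of rrm2, uhrf1 and mcm7 was not tested.

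**Figure D4:**
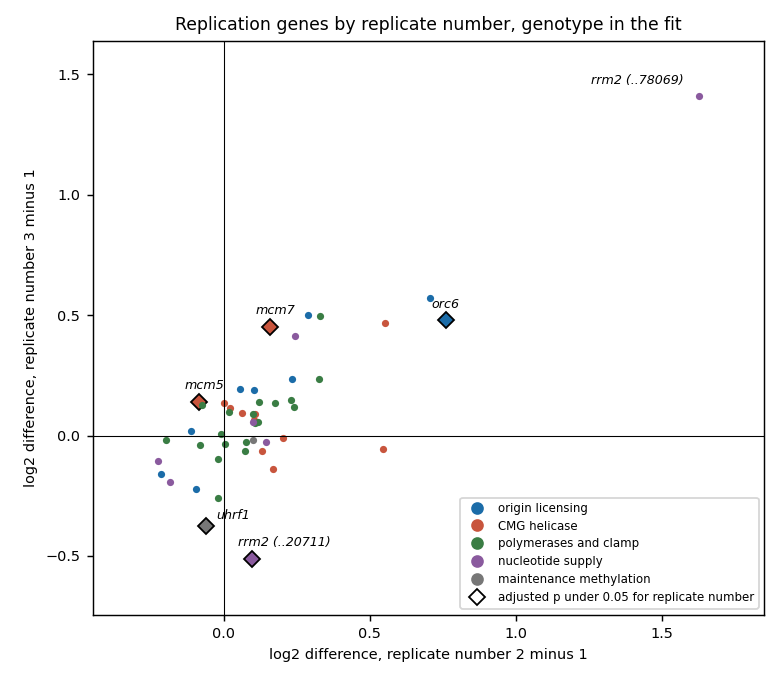
Log2 difference of each replication identifier between replicate numbers 2 and 1 (horizontal) and between numbers 3 and 1 (vertical), from the edgeR fit with genotype and replicate number as terms over 6 libraries. Diamonds mark the 5 identifiers with an adjusted p under 0.05 for replicate number; rrm2 (ENSDARG00000020711) and uhrf1 lie low on the vertical axis, mcm7 and orc6 high, and rrm2 (ENSDARG00000078069), at 1.63 and 1.41, was not called.

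Other genes of replication were listed by their role at the fork. Of 49 further symbols, 43 were matched and tested, with 19 positive and 24 negative log2 fold changes and a median of -0.01. None was called (0 with edgeR, with or without the replicate block), and 3 had an unadjusted p under 0.05, where 2.17% of all genes did. With the replicate block 7 of the 43 had an unadjusted p under 0.05, where 9.20% of all genes did. Deoxycytidine kinase, dck, which salvages nucleosides, had 5.01, 3.84 and 3.89 CPM in the mettl16-/- libraries and 5.89, 6.17 and 5.93 CPM in the sibling libraries. All mettl16-/- values were below all sibling values, as they were for 3.43% of all genes (log2 fold change -0.50, SE 0.191, edgeR unadjusted p = 0.025, adjusted p = 0.9999). With the replicate block the unadjusted p was 0.0072 and the adjusted p 0.25. The nucleotide pyrophosphatase dctpp1, which removes abnormal deoxycytidine nucleotides, had 4.57, 4.29 and 5.27 CPM in the mettl16-/- libraries and 1.89, 3.86 and 2.94 CPM in the sibling libraries. There all mettl16-/- values were above all sibling values, as they were for 3.46% of all genes (log2 fold change 0.70, SE 0.275, edgeR unadjusted p = 0.030, adjusted p = 0.9999). With the replicate block the unadjusted p was 0.0032 and the adjusted p 0.16. The remaining one, slbp, which binds the stem loop of histone messages and is named after its values were seen, had a log2 fold change of -0.35 (SE 0.142, edgeR unadjusted p = 0.034, adjusted p = 0.9999). With the replicate block its unadjusted p was 0.0034 and its adjusted p 0.16. Within replicate numbers 1, 2 and 3, the mettl16-/- library was higher for 28, 12 and 17 of these 43 genes, beside 50.3%, 49.99% and 48.7% of all genes tested.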

How the data were processed

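RNA-seq of 3 mettl16-/- and 3 sibling libraries was analysed. The authors filtered reads with fastp (version 0.18.0), removed reads of ribosomal RNA, mapped the rest on GRCz11 (HISAT2), used StringTie (version 1.3.1, per the submitters' processing notes) for assembly, and deposited raw counts per gene. The counting tool and its use of strand are not given in the sources used here.

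The files hold 26375 identifiers, of which 23499 matched a symbol. Counts were filtered with filterByExpr, scaled by TMM and tested with edgeR (4.0.16, quasi-likelihood, robust, R 4.3.3), with genotype as the only term and Benjamini-Hochberg adjustment over 18487 genes. A gene was called at an adjusted p under 0.05. A second fit with genotype and replicate number tested the number. Standard errors and 95% intervals come from the same F statistics. Across genes, the departure of a library from its genotype's mean correlated with that of the other genotype's library of equal number (r = 0.31 to 0.59). With libraries of other numbers r was negative (-0.45 to -0.04). Within a genotype the departures cancel out, so positive values for equal numbers bring negative ones elsewhere, which are no separate check. Over the 49 members alone number 2 did not pair (r = 0.023). By the values over all genes the numbers were taken to pair the libraries and the fit with the replicate block is given where it changes a count. The labels do not state the pairing. No 2 libraries agreed within sampling noise (chi-square per degree of freedom at least 4.04).

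The members and lists were chosen with earlier results of these data known. Members given with all values were, per step, the 2 with the smallest p for genotype and the one with the smallest p for replicate number, those called for genotype or changed at least 1.5-fold, and mcm2, mcm5, pcna, rrm2, cdc6, cdt1 and gmnn. Of the other genes, the 2 with the smallest p were given. Alternatives were DESeq2 (1.42.0), its size factors, other count filters, robust=FALSE, the replicate block and leaving out each library. Settings of the comparison within numbers (total count, size factors, prior count 0.5 in place of 2, a mean of at least 50 counts) were chosen after seeing the data. Scripts were tested on simulated data. Sequences, promoters and levels per gene length were not analysed here.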

Additional observations from a re-analysis of the deposited data

How the results depend on the processing

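The direction of members with log2 fold changes near 0 depended on the processing. The value of mcm2 was 0.0011 with no count filter and 0.0031 with the replicate block, and that of pcna was 7.3e-05 with no filter. Over the fits with 1 library removed, log2 fold changes ran from -0.048 to 0.093 for mcm2, -0.23 to 0.044 for mcm7, -0.037 to 0.022 for pcna, -0.21 to 0.047 for pold2, -0.29 to 0.039 for rrm2 (ENSDARG00000020711), -0.011 to 0.22 for uhrf1 and -0.024 to 0.055 for dnmt1. Without a change of sign, they ran from -0.54 to -0.14 for orc6, -0.21 to -0.0038 for cdc6, 0.11 to 0.35 for cdt1, 0.0016 to 0.13 for mcm5, -0.31 to -0.079 for gins1, 0.18 to 0.56 for gins3, -0.24 to -0.11 for prim1, 0.11 to 0.18 for rpa1 and 0.065 to 0.20 for tyms. No member was called for genotype under any alternative run. Members with an unadjusted p under 0.05 numbered 3 with the replicate block and 0 to 2 with a library left out. Over all genes, 23 were called, against 60 with DESeq2 (with and without the filter), 193 with the replicate block and 3 to 21 with a library left out. For replicate number, DESeq2's likelihood ratio test called 1753 genes and 2 members, and leaving out a library gave 2629 to 5318 genes and 2 to 4 members. By total count, 15 members were higher in the mettl16-/- library of replicate number 2, since that scaling moves all genes. The cause of the other changes was not tested. Of all values recomputed, 410 kept their direction and their side of the threshold, stayed within their spread or, for counts of genes, changed little. Of the others, 19 moved further, 19 lost the call and 15 changed sign. All 19 lost calls were calls for replicate number, of orc6, mcm5 and uhrf1. Many came from fits with a library left out, which leave 1 library in a replicate number. No member was called for genotype, so genotype values of members could lose no call. Their place among the 410 therefore says nothing about the stability of calls. Members with few counts, such as pole2 with a mean of 36, are limited by depth.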

Other observations

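Genes that regulate transcription at G1/S, repressors among them, were measured as well. Of 14 E2F, DP and retinoblastoma family symbols listed, 12 were matched and tested, and 9 had positive and 3 negative log2 fold changes (median 0.05). None was called (0 by edgeR, with or without the replicate block). With edgeR, 1 of the 12 had an unadjusted p under 0.05, where 2.17% of all genes did. With the replicate block the same gene did, where 9.20% of all genes passed. That gene was the pocket protein rbl2, a repressor of E2F targets in resting cells, named after its values were seen. It had 7.13, 10.3 and 7.96 CPM in the mettl16-/- libraries and 7.01, 6.22 and 5.81 CPM in the sibling libraries. All its mettl16-/- values were above all sibling values, as they were for 3.46% of all genes. The log2 fold change was 0.42 (SE 0.187, edgeR adjusted p = 0.9999, and 0.33 with the replicate block). Within replicate numbers 1, 2 and 3 the mettl16-/- library was higher for 10, 6 and 4 of the 12 genes, beside 50.3%, 49.99% and 48.7% of all genes tested.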
